A study of Mus musculus with 70 samples.

Results

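The diet effect described here is that of maternal high fat diet (HFD) on the liver of juvenile male offspring collected in the light phase. The samples were chosen by age and time of day, as the 4-week-old mice killed at zeitgeber time 1, 5 or 9 (ZT1, ZT5 and ZT9, in hours after lights on), and they are 17 of the 70 mice of the series. The other mice were killed in the dark phase or at 16 weeks of age. All mice were wild-type C57BL/6 males. Their dams ate either a control chow (Ctr) with 15.8% of its calories as fat or an HFD with 60% before mating and through pregnancy, and dams and pups of both groups were moved to the same control chow after birth, so none of the offspring was fed the HFD itself. Liver mRNA was sequenced from 8 Ctr mice (3 at ZT1, 3 at ZT5 and 2 at ZT9) and 9 HFD mice (3 at each ZT), 1 mouse per library, to ask whether the diet of the mother left a mark on hepatic gene expression at weaning age. Per the study's account, the mice of 1 group and time came from different litters, but the labels do not tie single mice to litters, so mice of different times that shared a dam cannot be told apart from those that did not.

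The liver at this age is leaving its fetal program and taking over glucose output, bile acid synthesis and drug metabolism, and most of these functions follow the day. In the light phase mice rest and fast, and hepatocytes release glucose through gluconeogenesis, whose last step is catalysed by glucose-6-phosphatase (G6pc). The liver also holds a dense population of macrophages, the Kupffer cells, and both they and hepatocytes answer interferon with a shared set of interferon-stimulated genes, which includes antiviral enzymes (Oas and Mx genes), nucleic acid sensors of the PYHIN family (Ifi200 genes) and immunity GTPases (Gbp and Irg genes). Type I interferon acts on these genes through the complex ISGF3, which binds a motif with repeated GAAA in their promoters.

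No gene passed the test of the diet effect over the light phase. Of 16559 genes tested, 0 had an adjusted p below 0.05 in the quasi-likelihood test of edgeR (ZT as a factor, Benjamini-Hochberg adjusted), and 0 did in DESeq2. The lowest adjusted p in edgeR was 0.999. An unadjusted p below 0.05 was found for 528 genes in edgeR (3.19% of those tested, 260 higher on HFD and 268 lower) and for 599 in DESeq2 (3.62%). The median log2 fold change, HFD over Ctr, was 0.00 over all genes tested, and the median standard error was 0.13 over the 12369 genes with a mean of at least 1 CPM (counts scaled to a common library total, which was corrected by TMM). The values below are therefore measured differences in these mice, each with its spread, and not calls. With no filter on low counts, 77 of 24779 genes (0.311%) were called in edgeR, 64 higher and 13 lower. Of the genes named below these were Cd74, Cyp2a22, Cyp2b9, Cyp2c69, G6pc, Gm21887, Ifi213, Ifi27l2a, Klk1, Ms4a4c, Mx1, Mycl, Ndufa12, Oas3, Rpl7a and Zpr1.

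A pair of HFD libraries stood apart from the rest. HFD ZT9 replicate 2 held transcripts of the exocrine pancreas, an organ that lies next to the liver. The 34 markers of that tissue summed to 82428 CPM there and to between 11.3 and 32 CPM in the other 16 libraries, and Klk1, a pancreas-expressed kallikrein whose 444.5 CPM in that library against at most 0.594 in the others gave a log2 fold change of 8.57, stood at 1.38 without it. Of 7 adipocyte markers, 0 had no counts in that library and 1 had none in HFD ZT9 replicate 1, against 3 or 4 in the others. Their sums in these libraries, 2680 and 1383 CPM, lay inside the Ctr range of 780 to 3027 CPM. HFD ZT1 replicate 3 had the most mitochondrial transcripts (12.4% of counts against 5.18% to 8.04%) and a GC slope of -0.55, against -0.22 to 0.17 elsewhere. The GC slope is the change of log2 CPM for 10 points of GC content of a gene, relative to the mean of the libraries. List medians that moved by over 1.5 times without both libraries are given both ways, and counts of list members in that setting are to be read beside 3.97% of all genes at an unadjusted p below 0.05 in that setting. Among Ctr mice, ZT5 replicate 1 departed most from its group, with a root mean square deviation of log2 CPM of 0.387, against 0.376 for HFD ZT9 replicate 2 and 0.444 for HFD ZT1 replicate 3. Without that Ctr mouse, 798 genes (4.87%) had an unadjusted p below 0.05 over the light phase and 0 passed in edgeR, and the medians that turned sign were those of the male-biased genes (-0.11 against 0.03) and of cytosolic ribosomal proteins (0.01 against -0.03).

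**Figure D1:**
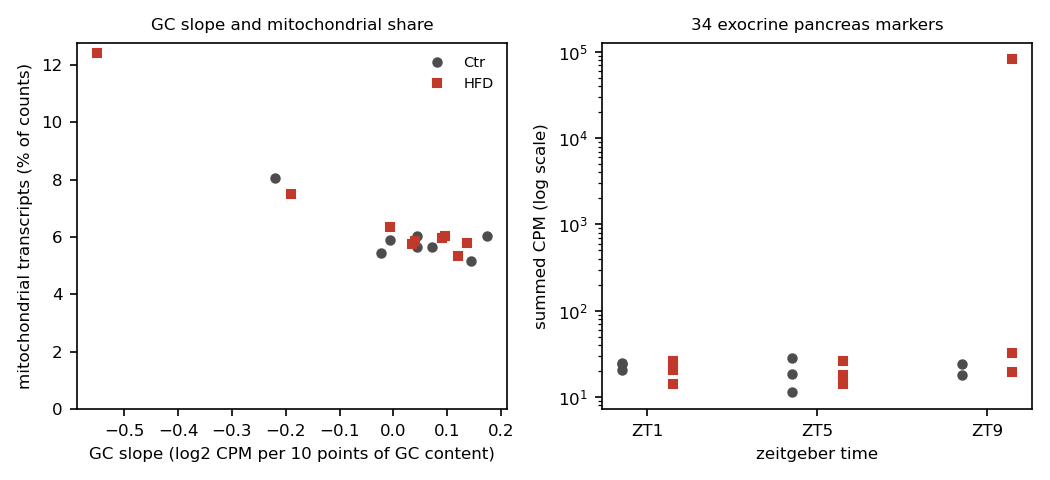
Each point is 1 of the 17 libraries, grey circles for Ctr and red squares for HFD. The left panel plots the percentage of counts from the mitochondrial genome against the GC slope, and HFD ZT1 replicate 3 lies alone at 12.4% and -0.55. The right panel plots the summed CPM of 34 exocrine pancreas markers on a log axis, and HFD ZT9 replicate 2 lies at 82428 CPM above 16 libraries at 11.3 to 32 CPM.

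The labelled tissue and times were checked against markers. The 9 hepatocyte markers summed to between 119222 and 175730 CPM in all mice. Arntl, the clock activator that peaks near dawn, stood at 28.6 to 37.8 CPM at ZT1 and at 0.544 to 1.19 CPM at ZT9, while Dbp, a clock output gene of the afternoon, stood at 0.163 to 0.521 CPM at ZT1 and at 117 to 247 CPM at ZT9. Library totals lay between 17045108 and 19605187 counts.

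Interferon-stimulated genes stood higher on HFD over the light phase, as did the PYHIN and GTPase families described after them. All 46 listed genes passed the filter on low counts, and all 46 had a positive log2 fold change, against 51.2% of all genes tested. Their median was 0.36, and 19 of the 46 had an unadjusted p below 0.05 in the direction of higher expression on HFD (1.57% over all genes tested), although none had an adjusted p below 0.05 by edgeR or by DESeq2. The list was drawn up with earlier results of these data known, so its direction is not independent evidence. The genes of such a list also vary together from mouse to mouse, and the spread between mice of its mean log2 CPM was 0.39 (SD after removing the mean of each diet and ZT), which is as large as the median difference.

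The high values were those of 5 of the 9 HFD mice. The geometric mean of the 46 genes was 12.1, 12.9 and 14.3 CPM in the 3 Ctr mice at ZT1, 16.4, 12.2 and 11.8 CPM at ZT5 and 11.1 and 10.8 CPM in the 2 Ctr mice at ZT9. In HFD mice it was 19.6, 14.5 and 12.2 CPM at ZT1, 18.1, 11.1 and 19 CPM at ZT5 and 26.4, 10.7 and 21.1 CPM at ZT9. Replicate 1 at ZT1, replicates 1 and 3 at ZT5 and replicates 1 and 3 at ZT9 thus lay above every Ctr mouse, whereas the other 4 HFD mice lay inside the Ctr range or, for 1 mouse at ZT9, just below it. In those 5 mice, between 40 and 46 of the 46 genes exceeded the Ctr mean of the same ZT, and in the other 4 mice between 7 and 29 did. HFD ZT9 replicate 2, the library with pancreas transcripts, was the lowest of all 17 mice.

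**Figure D2:**
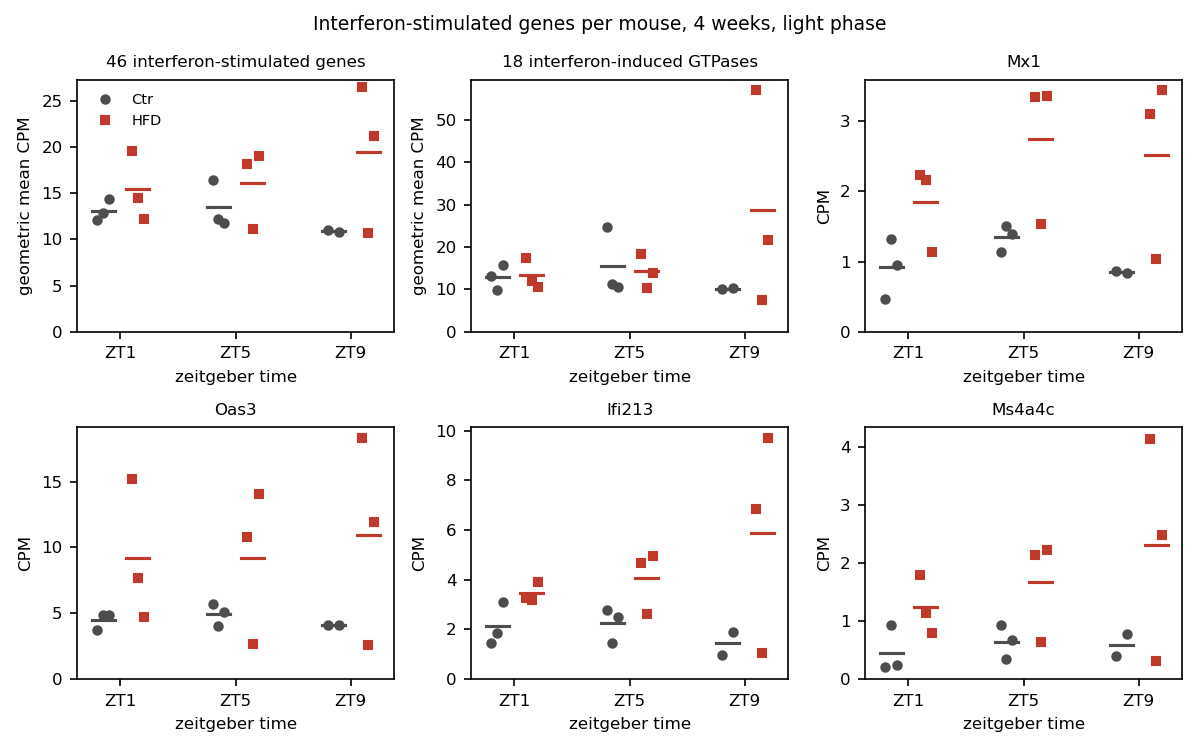
Points are single mice at ZT1, ZT5 and ZT9, grey circles for Ctr and red squares for HFD, with a bar at the mean of each group. The upper left panels show the geometric mean CPM of 46 interferon-stimulated genes and of 18 interferon-induced GTPases, and the others the CPM of Mx1, Oas3, Ifi213 and Ms4a4c. For the 46 genes, 5 HFD mice lie at 18.1 to 26.4 CPM, above all Ctr mice (10.8 to 16.4 CPM), and 4 lie at 10.7 to 14.5 CPM.

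Mx1, an interferon-induced gene of the dynamin-like GTPases (ENSMUSG00000000386, chr16:97447035-97462907 of GRCm38), had the lowest unadjusted p among them. It was at 0.469, 1.05 and 1.5 CPM (lowest, median and highest) in Ctr mice and at 1.03, 2.24 and 3.44 CPM in HFD mice. In 7 of 9 HFD mice its level was above that of every Ctr mouse. The log2 fold change was 1.17 with a standard error of 0.28 (adjusted p = 0.999 in edgeR, and 0.0470 with no filter on low counts), and the values at single time points were 1.02 for ZT1, 1.03 for ZT5 and 1.57 for ZT9.

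Oas3, an oligoadenylate synthetase that activates RNase L on double-stranded RNA (ENSMUSG00000032661, chr5:120753098-120777661), ranged more widely. Its levels in Ctr mice were between 3.70 and 5.72 CPM. HFD mice were at 15.2, 7.70 and 4.72 CPM at ZT1, at 10.8, 2.66 and 14.1 CPM at ZT5 and at 18.3, 2.61 and 11.9 CPM at ZT9. So 6 HFD mice lay above and 2 below every Ctr mouse, and the log2 fold change of 1.09 ± 0.33 (SE) was 1.30 without both libraries that stood apart. Its adjusted p of 0.999 (edgeR, Benjamini-Hochberg) was 0.00492 with no filter on low counts.

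Ms4a4c, a membrane-spanning protein of leukocytes that is induced by interferon, was at 0.208, 0.536 and 0.926 CPM in Ctr mice and at 0.303, 1.79 and 4.14 CPM in HFD mice (log2 fold change 1.56 ± 0.44 SE). Ifi27l2a, a small interferon-induced protein of membranes, was at 0.924, 1.83 and 3.39 CPM in Ctr and 1.66, 4.18 and 9.63 CPM in HFD mice (1.06 ± 0.29 SE). The groups overlapped for both genes, and 6 and 7 of the 9 HFD mice lay above every Ctr mouse. Among the other list members with an unadjusted p below 0.05 were Irf7, the transcription factor that amplifies the interferon response (0.93), Ifi44 (0.84), Oasl2 (0.73), Ifit2, which binds viral RNA (0.68), Rsad2, an antiviral radical SAM enzyme (0.36), and Irf9, the DNA-binding subunit of ISGF3 (0.31). Isg15, a ubiquitin-like protein of the same response, had a value of 0.25 and an unadjusted p above 0.05, and Ifi35 had the smallest value, 0.04.

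The PYHIN genes, sensors of cytosolic and nuclear DNA that lie in a cluster on chromosome 1, had the highest median among the pathway and family lists. Of its 12 genes, 10 passed the filter on low counts. Each of these 10 was positive (51.2% over all genes), with a median of 0.52, and 4 had an unadjusted p below 0.05 (1.57% over all genes for higher expression), or 8 without both libraries that stood apart. Ifi213 was at 0.982, 1.88 and 3.10 CPM in Ctr and 1.03, 3.92 and 9.70 CPM in HFD mice, and 7 HFD mice lay above the Ctr range (log2 fold change 1.11 ± 0.34 SE). Ifi209 was at 2.34, 3.16 and 4.53 CPM in Ctr and 2.31, 5.43 and 8.98 CPM in HFD mice (0.81 ± 0.24 SE), again with 7 HFD mice above every Ctr mouse and 1 below. Ifi208 (0.69) and Mndal (0.40) followed, and Aim2, the inflammasome sensor, stood at 0.03. These genes are close copies of each other, so reads that fit more than 1 of them may have been lost, and their single values are uncertain.

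Promoters of these genes are shown because ISGF3 reads a motif of 2 GAAA repeats. The letters searched, on both strands, were GAAA, any 2 bases and GAAA again. Sequences are RefSeq windows on GRCm38.p6, from 90 to 31 bases before the annotated start, on the strand of the gene, with the motif in capitals.
Oas3, chr5:120777690-120777749, minus strand: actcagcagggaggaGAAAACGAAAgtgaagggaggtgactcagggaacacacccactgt
Ifi213, chr1:173599303-173599362, minus strand: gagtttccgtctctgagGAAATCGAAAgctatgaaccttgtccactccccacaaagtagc
Ifi208, chr1:173673575-173673634, plus strand: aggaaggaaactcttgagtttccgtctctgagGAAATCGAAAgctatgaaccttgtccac
Ms4a4c, chr19:11407571-11407630, plus strand: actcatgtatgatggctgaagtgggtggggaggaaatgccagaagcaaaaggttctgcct
Ifi209, chr1:173630769-173630828, plus strand: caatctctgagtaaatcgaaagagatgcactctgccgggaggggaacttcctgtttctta
The motif lay 75 to 66 bases before the start of Oas3, 73 to 64 before that of Ifi213 and 58 to 49 before that of Ifi208, and it was not found in the windows of Ms4a4c and Ifi209. Over the whole RefSeq windows, from 250 bases before to 50 bases after the start, 17 of the 34 interferon-stimulated genes with an entry held it (50.0%), as did 8 of 11 PYHIN genes (72.7%) and 10 of 10 interferon-induced GTPases (100%), against 1079 of 27025 genes in all (3.99%). A match of letters is a description of the sequence and not a measured binding site.

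Interferon-induced GTPases, which act on membranes of vacuoles that hold pathogens and respond mainly to interferon gamma, did not follow the other genes in every mouse. The log2 fold change was positive for 17 of the 18 genes with a median of 0.42, but 0 had an unadjusted p below 0.05 over the light phase in edgeR, or 3 without both libraries that stood apart. Without Ctr ZT5 replicate 1 the median was 0.59, with 0.42 at ZT5, and 6 of 18 genes had an unadjusted p below 0.05 (4.87% over all genes). Their geometric mean was 9.96 to 15.7 CPM in Ctr and 10.6 to 17.3 CPM in HFD mice at ZT1. At ZT5 the highest mouse was a Ctr mouse (replicate 1, 24.8 CPM), and the HFD mice had 18.4, 10.4 and 14.0 CPM. At ZT9 HFD replicate 1 reached 56.9 CPM and replicate 3 21.7 CPM, whereas replicate 2 stood at 7.62 CPM and the 2 Ctr mice at 10.0 and 10.4 CPM. The median log2 fold change of the list was 0.06 at ZT1, -0.15 at ZT5 and 1.63 at ZT9, and it was -0.03 over the light phase with ZT9 left out. The interaction of diet with ZT had an unadjusted p below 0.05 for 5 of the 18 genes (4.34% over all genes), and 0 passed adjustment in edgeR. In HFD ZT9 replicate 1, Irgm2 reached 288 CPM (35 to 157 CPM in Ctr mice) and Gbp4 20.0 CPM (2.48 to 11.3 CPM), and the geometric mean of the 19 genes of antigen presentation by MHC class I was 139 CPM, against 53.1 to 83.6 CPM in Ctr mice.

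The interferon-stimulated genes also had their largest values at ZT9. Their median log2 fold change was 0.20 at ZT1 (37 of 46 positive, 51.2% over all genes), 0.24 at ZT5 (37 positive, 48.1%) and 0.84 at ZT9 (46 positive, 52.3%). At ZT9, 28 of them had an unadjusted p below 0.05 in the direction of higher expression (4.01% over all genes), and for 16 the 3 HFD mice lay above both Ctr mice (12.0% over all genes). The interaction of diet with ZT had an unadjusted p below 0.05 for 2 of the 46 genes (4.34% over all genes), so a difference between the time points was not shown. Without ZT9 the median over the light phase was 0.23, with 9 genes at an unadjusted p below 0.05 (1.82% over all genes).

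Both libraries that stood apart were HFD mice with interferon-stimulated genes inside or just below the Ctr range. Leaving them out was therefore bound to raise these values, and it is no check of them. The median of the 46 genes was 0.42 without HFD ZT9 replicate 2, 0.40 without HFD ZT1 replicate 3 and 0.47 without both, and 27, 22 and 29 of the genes then had an unadjusted p below 0.05 (3.21%, 3.90% and 3.97% over all genes in the same settings). With the GC slope in the model the median was 0.34. The genes that sense interferon or trigger its production stood closer to 0, with 14 of 22 tested genes positive, a median of 0.03 (0.06 without both libraries) and 1 gene at an unadjusted p below 0.05, the endosomal RNA sensor Tlr7 (2.54, 4.90 and 7.98 CPM in Ctr, 2.79, 6.65 and 9.97 CPM in HFD mice, 0.46 ± 0.21 SE).

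Markers of immune cells overlapped between the diets. The 12 Kupffer cell and macrophage markers summed to 582, 761 and 905 CPM (lowest, median, highest) in Ctr and 531, 778 and 973 CPM in HFD mice. The 14 T and NK cell markers summed to 5.34 to 19.6 CPM in Ctr and 5.79 to 15.9 CPM in HFD mice, the 9 dendritic cell markers to 9.04 to 16.4 and 8.57 to 15.3 CPM, the 8 monocyte markers to 61.4 to 120 and 76.3 to 118 CPM, and the 10 neutrophil markers to 3.00 to 9.29 and 1.62 to 12.6 CPM. By time point the markers moved in different directions. At ZT1 the log2 fold change was negative for 12 of 12 Kupffer cell markers (median -0.19) and 13 of 14 T and NK cell markers (-0.89). At ZT9, where the interferon-stimulated genes were at their highest median, it was positive for 10 of 12 Kupffer cell markers (0.29), 6 of 7 tested monocyte markers (0.46), 10 of 14 T and NK cell markers (0.57) and 6 of 8 tested neutrophil markers (1.25), against 52.3% of all genes. For dendritic cells and for B and plasma cells it was positive for 5 of 9 markers each (0.06 and 0.08). The neutrophil median rests on very low values, with sums at ZT9 of 3.00 and 3.45 CPM in Ctr and 4.95, 3.52 and 3.89 CPM in HFD mice. No marker of these lists was at 0 in every mouse. HFD ZT9 replicate 1, the mouse with the highest interferon-stimulated genes, also had the highest sums of Kupffer cell (973 CPM) and, among HFD mice, T and NK cell markers (15.9 CPM), and HFD ZT9 replicate 2 was among the lower mice in both (562 and 6.67 CPM). The part of these cells, or of the adipocyte transcripts given above for that mouse, in the result was not tested. In bulk liver, fewer cells of a type and less RNA per cell cannot be told apart.

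Genes of MHC class II and of antibody-producing cells stood lower on HFD over the light phase as a whole, but not at ZT9. Cd74, the invariant chain that guides class II molecules, was at 83.2, 132 and 231 CPM in Ctr and 48.6, 79.4 and 172 CPM in HFD mice (log2 fold change -0.63 ± 0.22 SE), and H2-Aa, a class II chain, at 25.9, 37.0 and 64.8 CPM and at 13.2, 21.4 and 49.4 CPM (-0.57 ± 0.23 SE). In both genes 6 of 9 HFD mice lay below every Ctr mouse. Of the 7 genes of the list 6 were negative (48.8% over all genes) with a median of -0.54, which was -0.38 without HFD ZT1 replicate 3 and -0.31 without both libraries that stood apart. The median was -0.88 at ZT1, -0.43 at ZT5 (-0.14 without Ctr ZT5 replicate 1) and 0.12 at ZT9, but the interaction with ZT had an unadjusted p below 0.05 for 0 of the 7 genes in edgeR. The geometric mean of the list was highest in HFD ZT9 replicate 1 (27.6 CPM), followed by Ctr ZT1 replicate 1 (24.7 CPM), which was the higher of these mice for Cd74 and H2-Aa.

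Igha, the constant region of the IgA heavy chain, was at 33.4, 8.49 and 16.7 CPM in the 3 Ctr mice at ZT1 and at 4.31, 4.77 and 3.86 CPM in the HFD mice. The groups did not overlap at ZT1 (4.30% of all genes lay lower in this way), although the Ctr mice themselves spread from 8.49 to 33.4 CPM. The log2 fold change at ZT1 was -2.18, with an adjusted p of 1.0 in edgeR (Benjamini-Hochberg) and 0.0130 in DESeq2. The 9 B and plasma cell markers moved with it, at 58.5, 19.9 and 37.0 CPM in Ctr and 11.9, 13.8 and 15.7 CPM in HFD mice at ZT1. At ZT5 6 of these 9 markers were negative (median -0.40), and at ZT9 5 were positive (0.08). Igha was at 15.9, 10.2 and 7.45 CPM in Ctr and 5.05, 5.42 and 3.17 CPM in HFD mice at ZT5. It overlapped at ZT9, at 3.18 and 3.69 CPM in Ctr and 2.18, 1.82 and 6.37 CPM in HFD mice. The T and NK cell markers, given above, and 7 of 8 erythroid markers (median -0.69) were negative at ZT1 as well, and their part in the result was not tested.

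Zpr1 was the only gene that passed edgeR's test at a single time point. It encodes a zinc finger protein that binds elongation factor eEF1A and works in the nucleus in transcription and RNA processing (ENSMUSG00000032078, chr9:46273064-46282643, plus strand). Its level in Ctr mice was 40.0, 35.7 and 31.6 CPM at ZT1, 79.0, 76.3 and 71.1 CPM at ZT5 and 89.8 and 102 CPM at ZT9. HFD mice stood at 33.8, 36.4 and 35.6 CPM at ZT1, at 44.7, 55.4 and 52.2 CPM at ZT5 and at 50.2, 49.1 and 51.9 CPM at ZT9. The groups overlapped at ZT1 and lay apart at ZT5 and ZT9, where 4.39% and 13% of all genes were lower on HFD without overlap.

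At ZT9 Zpr1 was lower on HFD by 0.93 on the log2 scale (log2 fold change -0.93, 0.14 SE, adjusted p = 0.0438 in edgeR, lower in 3 of 3 mice). It was the single call among 16559 genes (0.00604%), where 1138 genes (6.87%) had an unadjusted p below 0.05. DESeq2 called 3 genes (0.0181%), Zpr1, Igfbp2 and Atxn1. With both libraries that stood apart left out the adjusted p was 0.0886, and it was 0.110 with the replicate number as a block. The call was also lost in 14 of the 17 fits without 1 mouse, among them those without Ctr ZT9 replicate 2 (adjusted p = 1.0) and HFD ZT9 replicate 2 (adjusted p = 0.130), and in all 3 without 1 replicate number, with log2 fold changes between -1.02 and -0.81. The value was -0.02 at ZT1, -0.57 at ZT5 and -0.48 ± 0.11 SE over the light phase (adjusted p = 0.999 in edgeR, and 0.0383 without ZT1). The interaction of diet with ZT did not pass for Zpr1 (adjusted p = 0.996 in edgeR). In the fit of both phases, Zpr1 had a diet effect of -0.01 in the dark, and its effects in the light and in the dark differed by -0.47 (adjusted p = 0.835 in edgeR).

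Bud13, a splicing factor of the RES complex whose gene begins 364 bases downstream of Zpr1 on the same strand (chr9:46283008-46299110), was also lower on HFD. It stood at 11 and 12 CPM in Ctr mice at ZT9 and at 6.26, 4.31 and 7.50 CPM in HFD mice, with no overlap, and the groups overlapped at ZT5. The log2 fold change was -0.93 at ZT9 (adjusted p = 0.661 in edgeR) and -0.56 ± 0.16 SE over the light phase.

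**Figure D3:**
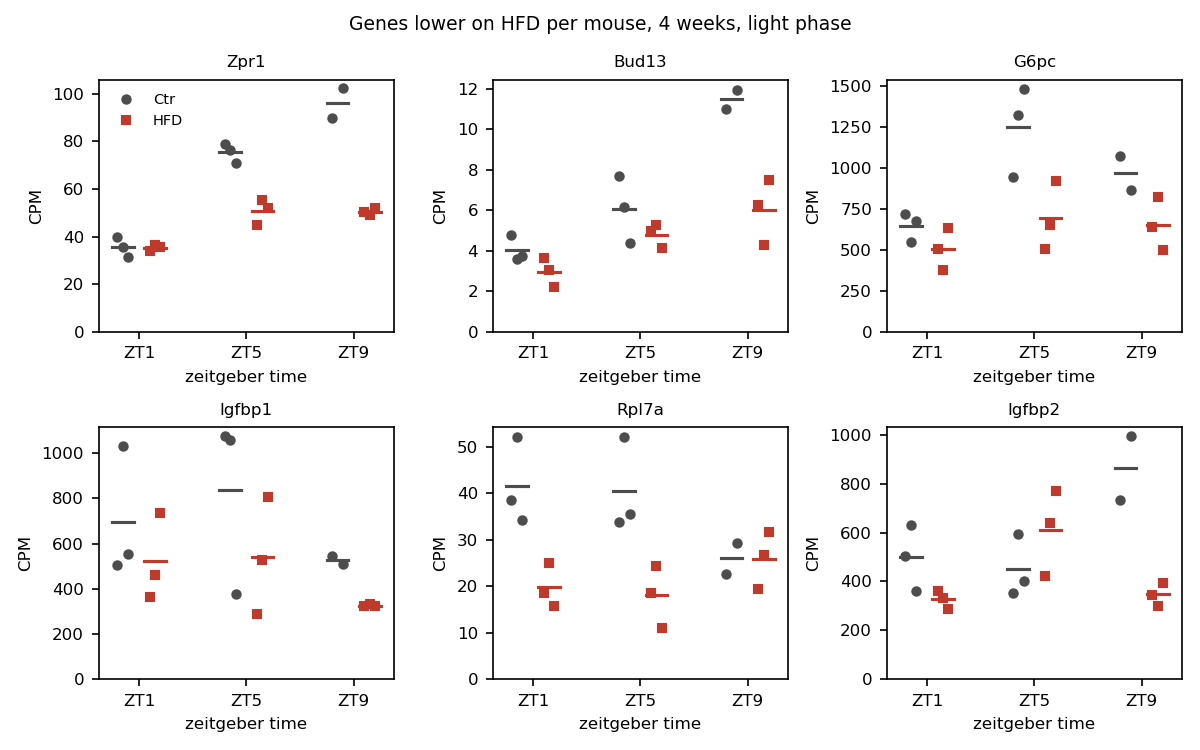
Points are the CPM of single mice at ZT1, ZT5 and ZT9, grey circles for Ctr and red squares for HFD, with a bar at the mean of each group. Zpr1 lies apart between the diets at ZT5 and ZT9 (71.1 to 102 CPM in Ctr and 44.7 to 55.4 CPM in HFD mice) and overlaps at ZT1. Bud13, G6pc, Igfbp1, Rpl7a and Igfbp2 are shown in the same way, and each overlaps at 1 or more time points.

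G6pc and some other genes of glucose handling stood lower on HFD. G6pc (ENSMUSG00000078650, chr11:101367561-101377903) was at 721, 547 and 676 CPM in Ctr mice at ZT1, at 942, 1326 and 1481 CPM at ZT5 and at 1071 and 865 CPM at ZT9. HFD mice were at 506, 378 and 633 CPM, at 507, 654 and 919 CPM and at 638, 820 and 500 CPM. The groups did not overlap at ZT5 or ZT9 and overlapped at ZT1 in a single HFD mouse. The log2 fold change was -0.59 ± 0.14 SE (95% interval -0.89 to -0.30), and -0.74 without both libraries that stood apart. Its adjusted p was 0.999 in edgeR (Benjamini-Hochberg) and 0.00278 with no filter on low counts.

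Of the 20 genes of gluconeogenesis and glucose handling, 15 were negative (48.8% over all genes) with a median of -0.12, 4 of them with an unadjusted p below 0.05 (1.62% over all genes for lower expression). Beside G6pc these were Igfbp1, the insulin-repressed binding protein of insulin-like growth factors (-0.58 ± 0.21 SE), Gys2, the liver glycogen synthase (-0.31 ± 0.13 SE), and Slc37a4, the transporter that carries glucose-6-phosphate to G6pc (-0.20). Igfbp1 was at 545 and 510 CPM in Ctr mice at ZT9 and at 322, 330 and 322 CPM in HFD mice. At ZT1 and ZT5 its groups overlapped, with Ctr mice between 378 and 1075 CPM. Pck1, the other rate-controlling enzyme of gluconeogenesis, had a value of -0.13, and Ppargc1a, the coactivator of the fasting program, -0.01.

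Of the fatty acid synthesis list 16 of 19 genes were negative, among them Pklr (-0.39), Me1 (-0.35), Fasn (-0.21) and Scd1 (-0.21), with a median of -0.17 and 0 genes lower at an unadjusted p below 0.05 in edgeR. In both directions together 1 gene had an unadjusted p below 0.05 (3.19% over all genes). There were 4 without HFD ZT9 replicate 2 (3.21%), 3 without both libraries (3.97%) and 6 without Ctr ZT5 replicate 1 (4.87%).

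Among genes of the growth hormone and IGF axis, Igfbp2, another binding protein of insulin-like growth factors, had its largest difference at ZT9. It was at 736 and 997 CPM in Ctr and 346, 301 and 395 CPM in HFD mice at ZT9 (log2 fold change -1.32 ± 0.26 SE, adjusted p = 0.36 in edgeR and 0.00568 in DESeq2). At ZT1 the values were 506, 631 and 361 CPM in Ctr and 361, 333 and 286 CPM in HFD mice. At ZT5 the groups overlapped, at 424, 638 and 772 CPM in HFD and 352, 595 and 403 CPM in Ctr mice. The interaction of diet with ZT did not pass for Igfbp2 (adjusted p = 0.996 in edgeR). Igf1 was at 554, 656 and 1082 CPM in Ctr and 635, 824 and 1329.9 CPM in HFD mice (0.28 ± 0.13 SE), with both ranges overlapping, and the prolactin receptor Prlr had a value of 0.33. Over the 15 tested genes of the list the median was 0.09 (0.03 without both libraries), with 2 genes higher (1.57% over all genes) and 2 lower (1.62%) at an unadjusted p below 0.05, and 2 in all without both libraries.

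Nuclear genes of the respiratory chain stood slightly lower. Of 77 genes 53 were negative (48.8% over all genes), with a median of -0.08, and 9 had an unadjusted p below 0.05, all of them lower on HFD (1.62% over all genes). The time points went different ways, with 71 of 77 negative at ZT1 (median -0.20), 54 of 77 positive at ZT5 (0.10) and 45 negative at ZT9 (-0.09), and without ZT9 1 of 77 genes had an unadjusted p below 0.05 (1.82% over all genes). Cox5a, a subunit of cytochrome c oxidase, was at 93.9, 104 and 151 CPM in Ctr and 84.9, 92.8 and 105 CPM in HFD mice, with 5 HFD mice below every Ctr mouse (-0.26 ± 0.08 SE). Ndufb10, a subunit of complex I, was at 65.9, 74.6 and 111 CPM and at 52.1, 67.4 and 75.1 CPM (-0.25 ± 0.09 SE).

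Ndufa12, another complex I subunit (chr10:94198720-94221443), had the largest value of the list, -0.88 ± 0.26 SE. At ZT1 it was at 20.4, 13.3 and 33.8 CPM in Ctr and 7.67, 5.70 and 7.05 CPM in HFD mice, with no overlap (-1.73, adjusted p = 1.0 in edgeR and 0.0287 in DESeq2), while at ZT5 and ZT9 the groups overlapped. By contrast, 11 of the 13 chain subunits encoded in mitochondria were positive with a median of 0.18, which was 0.00 without both libraries that stood apart and 0.02 without HFD ZT1 replicate 3, the library with the highest mitochondrial share.

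Rpl7a, a protein of the large ribosomal subunit (chr2:26910764-26913318), had the second lowest unadjusted p of the light phase (-0.82 ± 0.19 SE, with an adjusted p of 0.000238 with no filter on low counts in edgeR). It was at 38.5, 52.1 and 34.2 CPM in Ctr and 18.5, 25.1 and 15.8 CPM in HFD mice at ZT1, and at 33.9, 52.1 and 35.5 CPM and 18.6, 24.3 and 11.1 CPM at ZT5, apart at both times. At ZT9 the groups overlapped, at 22.7 and 29.3 CPM and at 19.5, 26.6 and 31.6 CPM. The 81 tested genes of cytosolic ribosomal proteins had a median of -0.03 (-0.07 without both libraries), with 1 gene higher (1.57% over all genes) and 1 lower (1.62%) at an unadjusted p below 0.05. Rpl7a hosts small nucleolar RNAs and has near-identical copies in the genome, and Ndufa12 has such copies as well, so the counts of both are uncertain.

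Other metabolic genes differed singly. Cyp7a1, the rate-limiting enzyme of bile acid synthesis, was at 186 and 183 CPM in Ctr and 396, 329 and 422 CPM in HFD mice at ZT9, and overlapped at ZT1 and ZT5 (0.59 ± 0.25 SE over the light phase), whereas the 19 tested genes of bile acid synthesis and transport had a median of -0.01 (-0.02 without both libraries). Genes with female-biased expression in mouse liver went both ways. Cyp2c69 was higher (52.2, 90.6 and 215 CPM in Ctr, 114, 187 and 437 CPM in HFD mice, 0.92 ± 0.28 SE) and Cyp2b9 lower (6.56, 20.5 and 52.5 CPM against 5.06, 7.49 and 21.1 CPM, -1.13 ± 0.34 SE), with overlapping ranges in both. The median of the 18 tested female-biased genes was 0.06, and it turned to -0.15 without both libraries, to -0.07 without HFD ZT1 replicate 3, to -0.03 with the GC slope and to -0.29 without ZT9, and it was 0.33 without Ctr ZT5 replicate 1. That of the 18 male-biased genes was 0.03, and 0.01 without both libraries. It was -0.004 without HFD ZT1 replicate 3 and 0.08 without HFD ZT9 replicate 2. Cyp2a22, a cytochrome P450 of the Cyp2a family, was at 23.4, 20.1 and 10.5 CPM in Ctr and 4.42, 5.15 and 9.64 CPM in HFD mice at ZT1 (-0.81 ± 0.22 SE over the light phase).

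Genes of cell division, which the juvenile liver still expresses, were mostly lower, with 21 of 30 negative (48.8% over all genes) and a median of -0.19. The median was -0.07 at ZT1, -0.42 at ZT5 (28 of 30 negative) and -0.01 at ZT9 (15 of 30 negative). An unadjusted p below 0.05 was found for 4 of them (1.62% over all genes for lower expression), Cdc20, an activator of the anaphase-promoting complex (2.60, 6.55 and 12.3 CPM in Ctr, 1.64, 3.15 and 10.1 CPM in HFD mice, -0.68 ± 0.24 SE), Ccnb2 (-0.62), Birc5 (-0.60) and the replicative helicase subunit Mcm6 (-0.39), while Mki67 and Top2a stood at 0.06 and 0.00. Without both libraries that stood apart the median of the list was -0.27, with 11 genes at an unadjusted p below 0.05 (3.97% over all genes). Afp, the fetal serum protein that the liver silences after birth, was at 2.00, 3.54 and 4.82 CPM in Ctr and 1.58, 2.31 and 2.92 CPM in HFD mice (-0.66 ± 0.20 SE). The 8 erythroid markers summed to 238 to 1120 CPM in Ctr and 299 to 766 CPM in HFD mice.

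The lists with small medians were those of the circadian clock (0.016, and 0.025 without both libraries, 10 of 19 genes positive, Bhlhe40 alone with an unadjusted p below 0.05 at -0.37), cholesterol synthesis (-0.06, 3 of 24 positive), fatty acid oxidation and PPARa targets (-0.07, 9 of 29 positive), acute phase and inflammation (0.07), the unfolded protein and heat shock response (0.02), the glucocorticoid response (0.04) and MHC class I (0.08), and none of the last 6 had a gene with an unadjusted p below 0.05 in edgeR. Xenobiotic metabolism stood at -0.11 with 8 of 28 genes positive, and 2 genes, Ces2a (-0.31) and Gstt1 (-0.25), were lower at an unadjusted p below 0.05 (1.62% over all genes), with 6 genes in either direction without Ctr ZT5 replicate 1 (4.87% over all genes). The unfolded protein list stood at 0.20 at ZT1, -0.34 at ZT5 (22 of 25 negative) and 0.13 at ZT9. Its value at ZT5 was -0.14 without Ctr ZT5 replicate 1. The interaction with ZT had an unadjusted p below 0.05 for 7 of its 25 genes (4.34% over all genes). Without both libraries the light-phase medians were 0.20 for MHC class I, with 2 genes at an unadjusted p below 0.05, 0.13 for acute phase, -0.11 for fatty acid oxidation and 0.00 for both the unfolded protein and the glucocorticoid response. Without Ctr ZT5 replicate 1 they were -0.03 for cholesterol synthesis, -0.11 for fatty acid oxidation with 3 genes at an unadjusted p below 0.05 (4.87% over all genes), 0.05 for the unfolded protein and 0.12 for the glucocorticoid response, and -0.05 for bile acid genes. Mitochondrial ribosomal proteins stood at -0.06, with 54 of 77 negative and 4 lower at an unadjusted p below 0.05 (1.62% over all genes), fetal liver genes at -0.16 (-0.27 without both libraries, -0.06 without Ctr ZT5 replicate 1) and major urinary proteins at 0.22.

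Each time point by itself gave few or no calls. At ZT1, 0 genes passed in edgeR's test (606 or 3.66% at an unadjusted p below 0.05), and 2 (0.0121%), Igha and Ndufa12, did in DESeq2. At ZT5, 0 passed (377 or 2.28% unadjusted), and 1 gene (0.00604%), Fam222a, passed in DESeq2, at 32.8, 19.7 and 8.67 CPM in Ctr and 3.88, 6.22 and 5.15 CPM in HFD mice. At ZT9, Atxn1, the gene of ataxin 1, stood at 11.5 and 8.38 CPM in Ctr and at 21.3, 30.6 and 36.6 CPM in HFD mice, with an adjusted p of 0.36 in edgeR and 0.00124 in DESeq2. The interaction of diet with ZT gave 0 genes in edgeR (718 or 4.34% unadjusted).

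Some of the low p-values at single time points rested on 1 Ctr mouse. Hmox1, the stress-induced heme oxygenase, was at 305 CPM in Ctr ZT5 replicate 3 and between 18.4 and 51.9 CPM in the other 16 mice. Gapdh, a glycolytic enzyme with many near-identical copies, was at 45.4 CPM in Ctr ZT9 replicate 2 and between 1.41 and 4.77 CPM in all others. The acute phase genes had a geometric mean of 205 CPM in Ctr ZT5 replicate 1 against 61.6 and 60.8 CPM in the other 2 Ctr mice at ZT5, and the median of that list was -0.47 at ZT5 while it was 0.48 at ZT1 and 0.34 at ZT9. Without that mouse the median was 0.27 at ZT5 and 0.38 over the light phase, with 12 of 28 genes at an unadjusted p below 0.05 (4.87% over all genes).

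The diet effect of the light phase was then set beside that of the dark phase (ZT13, ZT17 and ZT21, 17 mice), in 1 fit of the 34 mice at 4 weeks. The labels of 1 dark-phase mouse disagree on its age (HFD ZT21 replicate 3, 4 weeks in its title and 16 in its age field). It was kept by its title, and the main values without it are given. The 2 phases differed by diet for 0 of 16776 genes in edgeR (889 or 5.30% at an unadjusted p below 0.05), and the dark phase itself had 0 calls with 2159 genes, 12.9%, at an unadjusted p below 0.05, against 543 (3.24%) for the light phase in the same fit. Without that mouse the dark phase had 0 calls with 1636 genes at an unadjusted p below 0.05 (909 or 5.45% higher, 727 or 4.36% lower). The phases then differed at an unadjusted p below 0.05 for 823 of 16681 genes. The interferon-stimulated genes had positive medians in both, with 0.37 in the light and 0.45 in the dark, and the difference between phases had an unadjusted p below 0.05 for 0 of the 46 (1 of 46 without that mouse, with a dark median of 0.48). Oas3 had log2 fold changes of 1.39 in the dark and 1.10 in the light, and Ms4a4c 1.65 and 1.57 (1.54 and 1.77 in the dark without that mouse), while Mx1 had 0.40 in the dark, with a difference of 0.78 between phases (adjusted p = 0.891 in edgeR).

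Some lists had other medians in the dark than in the light. Cytosolic ribosomal proteins had a dark-phase median of 0.24 with 43 of 81 genes higher at an unadjusted p below 0.05 (5.86% over all genes), against 1 in the light, and 21 of the 81 had a difference between phases at an unadjusted p below 0.05 (5.30% over all genes). Nuclear respiratory chain genes had 0.18 with 34 higher against -0.08 with none higher, and 17 of 77 differed between phases in that way. Cholesterol synthesis had -0.33 with 12 of 24 lower (7.01% over all genes) against -0.06 with none, but 3 of 24 had such a difference. Major urinary proteins had 0.93 against 0.22, with such a difference for 0 of 19 genes in edgeR. Without HFD ZT21 replicate 3 the dark medians of these 4 lists were 0.30 (40 genes higher), 0.18 (34 higher), -0.27 (9 lower) and 0.43, and 26, 19, 1 and 0 of their genes differed between phases at an unadjusted p below 0.05 (823 of 16681 genes in all). For single genes, the lowest unadjusted p of a difference was that of Abhd2, a lipase of the endoplasmic reticulum, at 0.22 in the light and -0.49 in the dark (difference 0.71, adjusted p = 0.835 in edgeR, and 0.931 without that mouse). G6pc was at -0.05 in the dark, with a difference of -0.54 from the light (adjusted p = 0.859 in edgeR).

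At 16 weeks the light phase was sampled in 9 Ctr and 9 HFD mice, and a fit of these with the 17 juvenile mice compared the ages. There 21 of 16115 genes (0.130%) passed at 16 weeks, 19 of them higher on HFD (0.118%), and 2146 (13.3%) had an unadjusted p below 0.05. In the same fit 0 passed at 4 weeks (796 or 4.94% unadjusted). The interferon-stimulated genes had a median of -0.04 at 16 weeks, with 15 of 46 positive (45.0% over all genes), against 0.36 and 46 of 46 (52.1%) at 4 weeks. The difference between ages had an unadjusted p below 0.05 for 21 of these 46 genes (11.8% over all genes) and a median of 0.45, and it was 1.51 for Mx1 (adjusted p = 0.142 in edgeR), 1.56 for Ifi213 (0.171) and 1.22 for Oas3 (0.290), none of which passed. Nuclear respiratory chain genes went the other way, at 0.32 with 54 of 77 higher at an unadjusted p below 0.05 at 16 weeks (6.95% over all genes).

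The only gene whose diet effect passed the test of a difference between the ages was Ndufa12. Its mean was 16.0 CPM in Ctr and 8.73 CPM in HFD mice at 4 weeks, and 15.3 and 34.8 CPM at 16 weeks. The log2 fold change was -0.87 at 4 weeks and 1.17 at 16 weeks (adjusted p = 0.0417), and the difference of -2.05 ± 0.36 SE had an adjusted p of 0.0401 in edgeR (1 of 16115 genes, 0.00621%). Without both libraries that stood apart no gene passed, although the difference for Ndufa12 was as large (-2.02, adjusted p = 0.0769 in edgeR). It was -2.09 without replicate 1 of every group (adjusted p = 0.220) and -2.08 without replicate 2 (adjusted p = 0.990), again without passing. The ages were counted in separate tables, and whether they were sequenced together is not given in the sources used here, so age and sequencing run cannot be told apart in the levels.

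**Figure D4:**
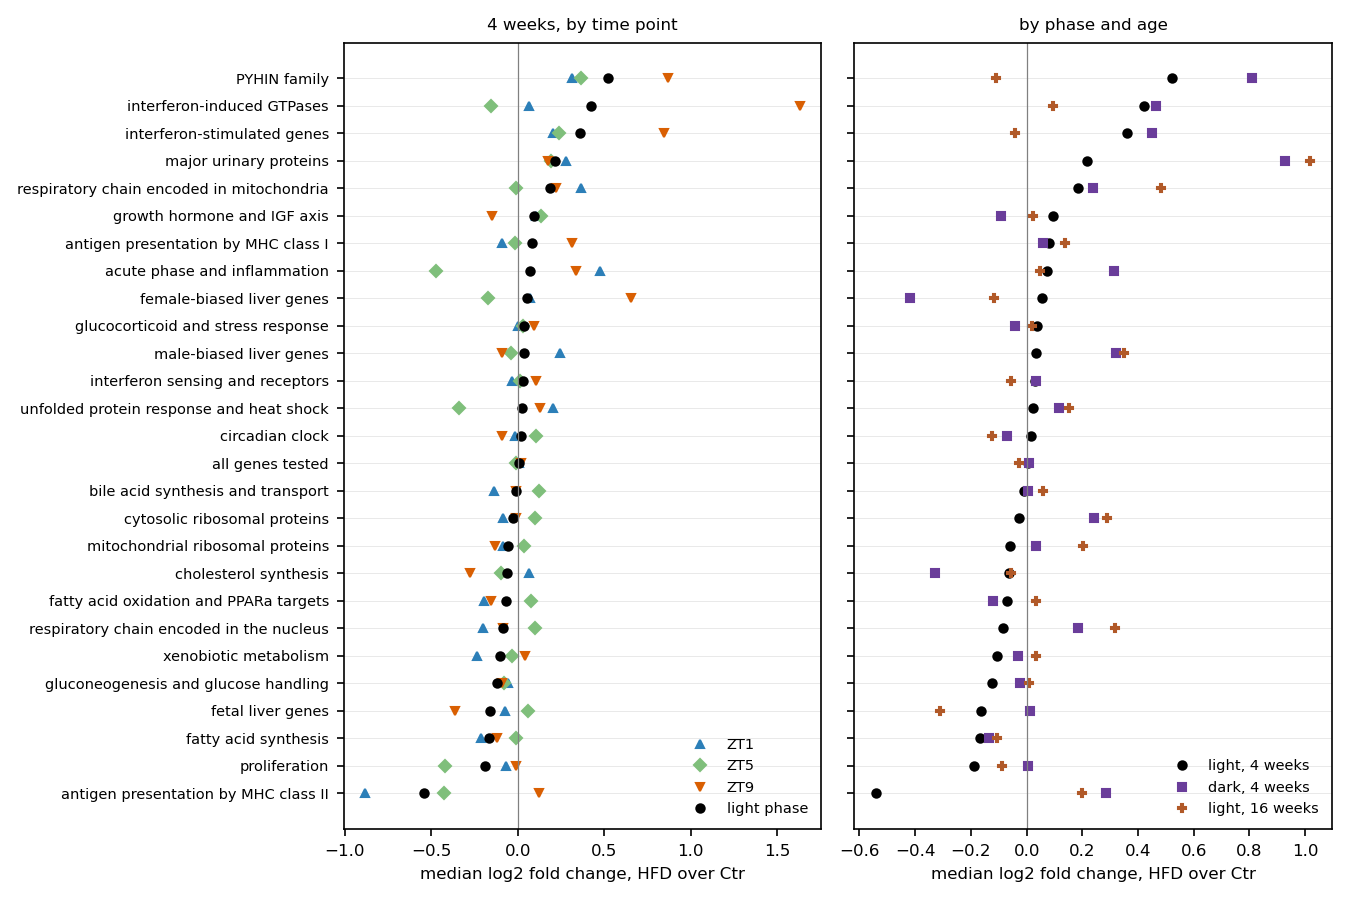
Each symbol is the median log2 fold change, HFD over Ctr, of 1 gene list, with the lists ordered by their value in the light phase at 4 weeks. The left panel gives ZT1, ZT5, ZT9 and the whole light phase, and the right panel the light phase at 4 weeks, the dark phase at 4 weeks and the light phase at 16 weeks. The 3 interferon lists are uppermost, at 0.52, 0.42 and 0.36 in the light phase, MHC class II is lowest at -0.54, and the median over all genes tested is 0.00.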

How the data were processed

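Poly-T purified liver mRNA was sequenced, and per the labels and methods the authors aligned reads with HISAT2 2.0.5 to GRCm38/mm10 and deposited featureCounts 1.5.0-p3 counts per gene, unnormalized, in 1 table per age. The strand setting is not given in the sources used here. In the 4-week table, 27 of 54532 symbols damaged as dates were restored, and 2 columns of per-mouse values that match no sample's labels were left out. A gene entered if 50% or more of the Ctr mice and 50% or more of the HFD mice had reads for it, and was tested in R 4.3.3 with edgeR 4.0.16 (TMM, quasi-likelihood test, ZT as a factor, Benjamini-Hochberg over all genes tested, adjusted p below 0.05). Effects at single ZT and their interaction came from 1 mean per diet and ZT, and phase and age differences from contrasts within 1 fit. Alternatives were DESeq2 1.42.0, other filters, scalings, covariates and left-out mice, and 3 were added after the data were seen. Scripts were tested on simulated data.

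Members and gene lists were chosen with earlier results of these data known. Named genes were the 8 of lowest p per direction (protein-coding, mean of at least 1 CPM), the 3 of lowest p per list, the 4 of lowest p per other comparison, 4 clock genes, and Ms4a4c, Ifi209 and Oas3. Other genes of a list are named after their values were seen. Each library is 1 mouse, and p-values measure the spread between these mice. Intervals are at 95%. Replicate numbers were not taken to pair mice: deviations of same-numbered mice correlated by 0.10 to 0.42 in the 3 pairs at ZT1, but by -0.15 to 0.07 in the 5 pairs at ZT5 and ZT9. Some genes are not reported here.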

Additional observations from a re-analysis of the deposited data

Results flagged for a closer look

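The diet effect on Ndufa12, the complex I subunit, differed between the ages in the light phase by the interaction test (difference of the log2 fold changes, 4 minus 16 weeks, -2.05, adjusted p = 0.0401 in edgeR). The HFD means were below the Ctr means at 4 weeks and above them at 16 weeks. Without both libraries that stood apart the difference was -2.02 and no gene passed. Near-identical copies make the counts of Ndufa12 uncertain, and their part in the result was not tested. Groups of 2 or 3 mice were too small for a test of single mice that stand far from their group.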

How the results depend on the processing

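Genes called by an adjusted p below 0.05 changed most with no filter on low counts, which gave 77 over the light phase, 74 at ZT1, 64 at ZT5, 286 at ZT9, 226 for the interaction, 144 for light minus dark and 70 for 4 minus 16 weeks, and the cause was not tested. DESeq2 called 2 at ZT1, 1 at ZT5 and 3 at ZT9. The GC slope as a covariate called 3 at ZT9, Zpr1 among them, and leaving out ZT1 called 1 over the light phase (Zpr1). With the replicate block the count at ZT9 was 0, and the block changed no other count (0 at ZT1, where same-numbered mice correlated most). Without both libraries that stood apart it was 0 at ZT9 and 0 for 4 minus 16 weeks. This setting, the GC slope for single ZT, and light minus dark without HFD ZT21 replicate 3 (0 genes) were chosen after the data were seen. Leaving out mice or replicate numbers in turn gave 0 to 2 genes at ZT1, 0 to 1 at ZT5, 0 to 2 at ZT9, 0 to 1 for the interaction (Gapdh, without Ctr ZT9 replicate 1) and 0 to 6 between the ages. Over the light phase these settings left 0 calls in each case, with 369 (without Ctr ZT9 replicate 2) to 798 (without Ctr ZT5 replicate 1) genes at an unadjusted p below 0.05. Zpr1 at ZT9 kept a log2 fold change between -1.02 and -0.81 in them, but its adjusted p was above 0.05 in 17 of them, each of which leaves fewer mice.

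Differences that were small over the light phase and turned sign in at least 1 setting were those of Arntl (0.0346 without ZT5), Dbp (-0.0794 in DESeq2 and -0.777 without ZT5) and 4 genes without replicate 1 or replicate 2 throughout. Leaving out mice or replicate numbers gave -0.169 to 0.0226 for Arntl, -0.232 to 0.212 for Dbp, -0.00688 to 0.160 for Abcc2, -0.00802 to 0.367 for Ugt2b1, -0.572 to 0.0211 for Sgk1 and -0.552 to 0.058 for H2-Q7. Each diet and ZT holds 2 or 3 mice, all libraries hold at least 17045108 counts, and what limits precision was not tested.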

Other observations

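Beside the genes described above, the light phase held single genes of low unadjusted p, none of which passed adjustment in edgeR (0 of 16559, adjusted p = 0.999 for each gene named here). Mycl, a transcription factor of the Myc family, was at 10.3, 14.7 and 20.7 CPM (lowest, median, highest) in Ctr and 4.91, 8.71 and 14.9 CPM in HFD mice, and 6 of 9 HFD mice lay below every Ctr mouse (log2 fold change -0.67 ± 0.19 SE). Lsm2, a subunit of the ring that binds U6 snRNA and decaying mRNA, was at 9.76, 11.4 and 13.9 CPM and at 8.23, 8.94 and 11 CPM, with 7 of 9 HFD mice below every Ctr mouse (-0.34 ± 0.10 SE).

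Sp1, a broadly active transcription factor, was at 18.5, 32.7 and 43.4 CPM in Ctr and 28.5, 38.8 and 54.1 CPM in HFD mice (0.34 ± 0.09 SE). Zfp111, a zinc finger gene, was at 1.77, 2.34 and 3.43 CPM and at 2.74, 3.59 and 4.85 CPM, with 6 of 9 HFD mice above every Ctr mouse (0.64 ± 0.18 SE). Plagl1, an imprinted gene of fetal growth and a member of the fetal liver list, whose median was -0.16, was at 1.25, 1.5 and 3.38 CPM in Ctr and 0.925, 2.48 and 5.05 CPM in HFD mice (0.71 ± 0.26 SE), and at 0.39 without both libraries that stood apart. Gm21887, a predicted gene at the end of chromosome X, was at 0.416, 1.78 and 4.43 CPM and at 1.97, 5.71 and 12.6 CPM (1.68 ± 0.40 SE). The groups overlapped for each of these genes.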
